A study of Mus musculus with 35 samples.

Results

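Regulatory T cells (Tregs) of mouse visceral adipose tissue (VAT) were compared at 4 h into the dark phase and 4 h into the light phase. Every library labelled VAT at Zeitgeber time (ZT, hours after lights on) 16 or ZT4 was taken, which gave 3 libraries at ZT16 (replicate letters A, B and C) and 3 at ZT4 (letters B, C and D), 6 of the 35 libraries of the series. The other libraries came from VAT at 4 further times and from spleen at the same 6 times. All mice were wild-type C57BL/6 males, retired breeders more than 35 weeks old, housed under a day of 12 light and 12 dark hours, so that sex, genotype and age range are common to both groups and the sampling time sets them apart. Each library, from VAT or spleen, held 1000 cells sorted in 2 rounds as CD4+ CD25+, a gate that activated conventional CD4 T cells can also enter, since the label names no Foxp3 stain. The labels do not say whether a letter stands for 1 mouse, a pool or a batch, so the p-values rest on the variation among the libraries as deposited, part of which may be technical. Of 55011 counted genes, 15910 passed the filter on low counts and were tested. The labels present the series as transcription over circadian time, and this comparison asks which genes differ between a time of darkness and a time of light.

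Tregs restrain immune responses, and those living in visceral fat form a resident population with its own transcription factors and receptors, among them PPARγ and the IL-33 receptor ST2. Most cells keep time with a transcriptional loop in which the CLOCK and BMAL1 proteins switch on the Period and Cryptochrome genes, whose products return to repress them. A second loop runs through the REV-ERB and ROR nuclear receptors, and output genes such as Dbp and Tef carry the rhythm on to other genes. Feeding, body temperature and glucocorticoids also differ between day and night in mice, which are active in the dark, and genes known to respond to each were listed.

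The 6 libraries held 2178238 to 6260185 counts, with the shallowest at ZT4 C and the deepest at ZT16 B. Levels are given as CPM, the gene's count over the library total on the usual common scale, with totals corrected by trimmed means (TMM). The lineage labels held: Foxp3, the defining transcription factor of Tregs, was at 713, 659 and 655 CPM in ZT16 A, B and C and at 627, 711 and 768 CPM in ZT4 B, C and D. Il1rl1, which encodes ST2, was at 1327, 1577 and 1326 CPM and at 1240.4, 1599 and 1396 CPM in the same order of libraries. Summed over 6 T cell markers (Cd3e, Cd3d, Cd4, Trac, Trbc2 and Lck), the level was 3237 to 3699 CPM at ZT16 and 2925 to 3297 CPM at ZT4. Of 13 marker lists for other cell types, the highest sum was that of 6 B cell genes, at 133 to 196 CPM at ZT16 and 144 to 242 CPM at ZT4. The 5 conventional CD4 T cell markers summed to 21.3 to 97.1 CPM at ZT16 and 18.8 to 82.2 CPM at ZT4. Most of this was Cd40lg, at 20.6, 89.9 and 91.6 CPM in ZT16 A, B and C. In ZT4 B, C and D it was at 28.2, 15.8 and 77.9 CPM, so it varied widely within each time. Dendritic cell markers summed to 14.5 to 24.8 CPM at ZT16 and 19.3 to 31.6 CPM at ZT4, macrophage or monocyte markers to 8.87 to 14.3 CPM at ZT16 and 13.3 to 20.5 CPM at ZT4, and adipocyte markers to 0.368 to 2.75 CPM at ZT16 and 0.989 to 3.51 CPM at ZT4. Il17a, Ncr1, Mcpt4, Plin1, Retn, Hbb-bs, Hbb-bt, Hba-a2 and Mzb1 were at 0 in all 6 libraries, but each of their lists had counted members. NK cell or ILC markers, mostly Il5, summed to 19.9 to 34.9 CPM at ZT16 and 16.1 to 52.1 CPM at ZT4. Endothelial markers, mostly Pecam1, summed to 23.7 to 40.4 CPM and 28.0 to 39.8 CPM. Mast cell or eosinophil markers, mostly Kit, summed to 10.8 to 15.5 CPM and 4.94 to 12.2 CPM. In exact permutation tests, two-sided, no marker sum had a p below 0.2, where the smallest p that 3 against 3 libraries can give is 0.1. On the first principal component of the VAT libraries, which held 29.8% of the variance, ZT16 B (16.9) and ZT4 C (10.4) lay to one side and the other 4 (-16.8 to -7.10) to the other, so counts are also given without these 2 libraries where that moves them by over 1.5 times.

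Few genes were told apart between the times. At an adjusted p under 0.05, 5 of the 15910 genes differed (0.0314%), 2 higher at ZT16 (0.0126%) and 3 lower (0.0189%). All p-values of genes come from edgeR's quasi-likelihood test, with Benjamini-Hochberg adjustment over the 15910 genes where called adjusted. At an unadjusted p under 0.05 there were 935 genes (5.88%), 440 higher (2.77%) and 495 lower (3.11%), and the 3 libraries of one time did not overlap with the 3 of the other in 1477 genes (9.28%). The median log2 fold change over all genes was 0.02. For genes of at least 100 CPM the median 95% confidence interval reached 1.24-fold to either side of the estimate, against 1.45-fold from 10 to 100 CPM and 2.94-fold from 1 to 10 CPM. The calls depended on single libraries and on the tool: leaving out any 1 of the 6 libraries left 0 or 1 gene past the threshold (Vmn2r97 without ZT4 B, Trbv31 without ZT4 D, Ehd3 without ZT16 C, and none without ZT4 C, ZT16 A or ZT16 B), and DESeq2 called 12.

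**Figure D1:**
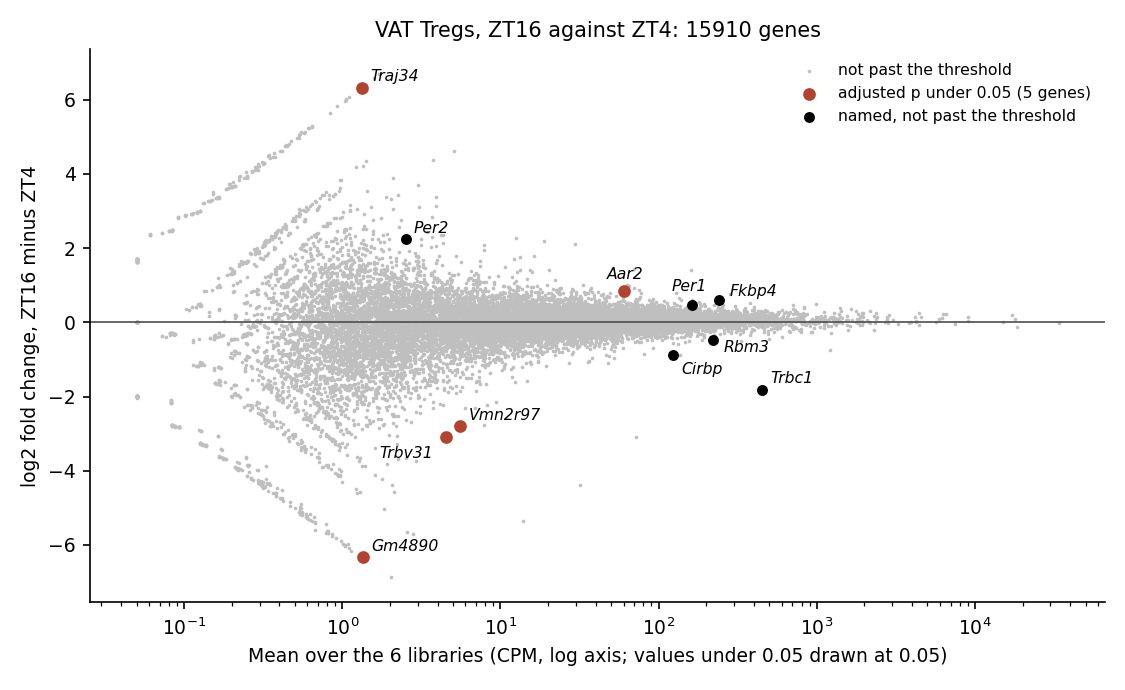
Log2 fold change at ZT16 against ZT4 (vertical axis) and mean CPM over the 6 VAT libraries (horizontal axis, logarithmic) for the 15910 genes tested, 1 point per gene. The 5 genes past the adjusted threshold are in red, 4 of them below 10 CPM, and the spread of grey points narrows as the level rises; straight bands at the left edge are genes with no counts at one time, whose fitted changes depend on the prior count.

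Aar2, which encodes an assembly factor of the U5 small nuclear ribonucleoprotein of the spliceosome, was the only one of the 5 above 10 CPM. It lies on chromosome 2 (156547584 to 156568972, plus strand, GRCm38). Its level was 81.5, 72.8 and 77.1 CPM in ZT16 A, B and C and 33.2, 48.4 and 48.1 CPM in ZT4 B, C and D. All 3 ZT16 libraries were above all 3 ZT4 libraries, and the log2 fold change was 0.84 ± 0.17 (SE; 95% interval 0.50 to 1.18; adjusted p = 0.0499). The group means at ZT0, 4, 8, 12, 16 and 20 were 67.6, 43.3, 74.6, 62.2, 77.1 and 79.9 CPM, with ZT4 the lowest of the 6 times. Choice by this contrast favours a low ZT4 mean, so its place among the times is no separate support. Of the 12 genes of lowest p with higher values at ZT16, 9 had their lowest mean at ZT4. Among all 8737 genes of at least 10 CPM, 965 did. The change kept its sign in all 18 alternative fits, from 0.68 to 0.97, and lost its call in 16 of them. With no overlap between the groups, the kept sign adds no evidence.

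The other 4 genes were counted rarely in VAT. Vmn2r97, a vomeronasal receptor gene of a large family (chromosome 17, 18914300 to 18958087, plus strand), fell from 4.15, 7.91 and 17.03 CPM in ZT4 B, C and D to 0.959, 1.29 and 2.00 CPM in ZT16 A, B and C, 99 counts against 19, with a log2 fold change of -2.80 ± 0.49 and an adjusted p of 0.0277. Without ZT4 D, which had the highest level, the log2 fold change was -2.00 and the call was lost. Since the family holds many similar genes, its read assignment is uncertain. Gm4890, a predicted noncoding gene on chromosome 8 (79295123 to 79308961, plus strand), had 0 counts at ZT16 and 25 at ZT4, where the libraries stood at 1.66, 3.46 and 3.01 CPM. Against a floor of 3 counts over the group it was at least 12.3-fold lower at ZT16 (adjusted p = 0.0499). Both remaining genes were T cell receptor segments. Leaving out ZT4 C, ZT16 A, ZT16 B or ZT16 C, taken singly, ended the calls of all 5 genes.

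T cell receptor genes are assembled in each T cell by joining variable (V) and joining (J) segments to a constant region, and cells of a clone share the same segments. Traj34, a joining segment of the alpha chain (chromosome 14, 54184699 to 54184756, plus strand), had 35 counts at ZT16 and 0 at ZT4. Its level was 4.55, 1.47 and 2.00 CPM in the 3 ZT16 libraries, at least 8.58-fold higher than the ZT4 floor of 3 counts over the group (adjusted p = 0.0499). Trbv31, a variable segment of the beta chain (chromosome 6, 41557691 to 41558452, minus strand), was at 1.44, 0.368 and 1.00 CPM at ZT16 and at 12.5, 9.89 and 2.00 CPM at ZT4, with 12 counts against 73 and a log2 fold change of -3.10 ± 0.60 (adjusted p = 0.0499). The lowest ZT4 library, D, was close to the highest ZT16 library. Among genes of at least 10 CPM, 3 more receptor genes were in the 12 of lowest p with lower values at ZT16, none past the threshold. Trbc1, 1 of the beta chain's pair of constant regions, was at 169, 259 and 171 CPM at ZT16 and at 1080.3, 469 and 557 CPM at ZT4 (log2 fold change -1.81 ± 0.46, adjusted p = 0.386), while Trbc2, its near-identical partner, was at 142, 159 and 194 and 203, 189 and 147 CPM. Reads cannot be divided with certainty between the pair. Trbv1 stood at 17.5, 13.97 and 14.3 CPM and at 237, 28.2 and 121 CPM, and Trav14d-3-dv8 at 0.240, 1.29 and 0.250 CPM and at 0.554, 54.9 and 26.3 CPM, where ZT4 B was as low as the ZT16 libraries.

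Receptor segments were then counted as a family, a choice made after their values were seen. Of 117 receptor genes tested, 23 had an unadjusted p under 0.05 (19.7%, against 5.88% of all genes), 12 higher and 11 lower at ZT16. The variable segments held most of these, with 11 of 34 Trav and 7 of 22 Trbv genes, against 4 of 40 Traj and 0 of 14 Trbj genes. Median dispersion, the squared variation between libraries of a group that the fit estimates, was 0.369 over the 117 receptor genes. It was 0.683 for Trav and 0.411 for Trbv genes, against 0.0857 over all genes. In bulk RNA, fewer cells of a kind and less RNA per cell cannot be told apart, which holds for these segments and for every gene described here.

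The Period genes of the clock stood higher at ZT16, in values that did not pass the adjusted threshold. All 22 core clock genes were tested and 0 were called. An unadjusted p under 0.05, which 5.88% of all genes had (2.77% higher at ZT16), was found for 3 of them, Per1, Per2 and Per3, all higher at ZT16, and the median log2 fold change of the 22 was 0.10 (all genes 0.02). Per2 was at 5.03, 2.21 and 5.26 CPM in ZT16 A, B and C and at 1.11, 0.989 and 0.501 CPM in ZT4 B, C and D. The lowest ZT16 library was ZT16 B, still above every ZT4 library, and the log2 fold change was 2.25 ± 0.65 (95% interval 0.92 to 3.57; adjusted p = 0.542). Per1 was at 174, 182 and 209 CPM and at 134, 114 and 163 CPM (0.46 ± 0.15; adjusted p = 0.725), also without overlap. Per3 was at 40.3, 28.5 and 21.5 CPM and at 11.9, 16.3 and 22.3 CPM (0.83 ± 0.37; adjusted p = 0.799), with ZT16 C below ZT4 D.

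The Cryptochrome repressor Cry1 was at 111, 112 and 112 CPM at ZT16 and 91.4, 88.5 and 96.4 CPM at ZT4, a narrow separation with a log2 fold change of 0.27 ± 0.25 (adjusted p = 0.982). Cry2 overlapped, at 24.7, 21.9 and 15.5 CPM and 13.8, 23.7 and 13.8 CPM. Both activators overlapped: Arntl, which encodes BMAL1, was at 100.2, 97.98 and 101 CPM and 138, 73.2 and 113 CPM (-0.12 ± 0.20), and Clock had means of 49.9 ± 3.77 and 55.7 ± 11.1 CPM (-0.15 ± 0.22). Npas2, a CLOCK paralog, had a mean of 4.45 ± 2.50 CPM at ZT16 and 2.79 ± 1.15 CPM at ZT4 (SD, n = 3 each). In the nuclear receptor loop, Nr1d1 (REV-ERBα) was at 21.1, 20.8 and 26.03 CPM and 27.97, 24.2 and 30.8 CPM. Nr1d2 (REV-ERBβ) was at 47.2, 101 and 39.3 CPM and 36.3, 84.5 and 34.6 CPM, with ZT16 B and ZT4 C each well above the other libraries of their group. Rora was at 1347, 1221 and 1276 CPM and 1275, 1202 and 1454 CPM, and the 95% interval of its log2 change ran from -0.35 to 0.29.

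Of the output genes, Dbp was at 15.6, 13.97 and 20.3 CPM at ZT16 and 27.4, 12.4 and 23.04 CPM at ZT4, a log2 difference of -0.36 ± 0.38 with a 95% interval from -1.13 to 0.41. Tef was at 44.6, 42.1 and 38.5 CPM and 47.4, 34.6 and 27.8 CPM. Hlf, of the same PAR bZIP family, was lower in each ZT16 library, at 34.3, 34.4 and 22.5 CPM against 44.3, 38.1 and 40.3 CPM (-0.43 ± 0.49; adjusted p = 0.988). Nfil3, which encodes a repressor that binds the same sites, was at 150.5, 163 and 156 CPM and 142, 159.7 and 112 CPM. Bhlhe40, a clock repressor that T cells also use on activation, ran from 23.7 to 89.9 CPM within ZT16, wider than the distance between the group means. Ciart, Bhlhe41, Csnk1d and Csnk1e overlapped between the times as well, with log2 differences from -1.19 (Bhlhe41) to 0.16 (Csnk1d).

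**Figure D2:**
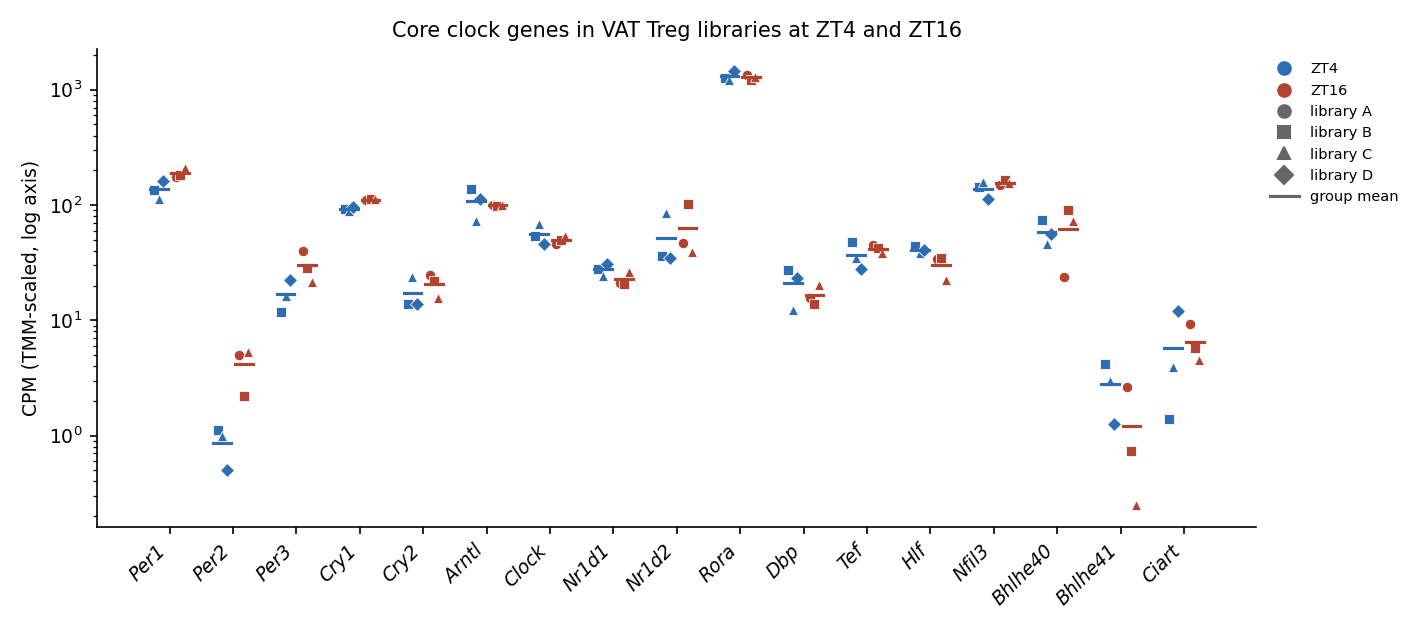
CPM (logarithmic axis) of 17 core clock genes in each of the 6 VAT Treg libraries, ZT4 in blue and ZT16 in red, with the marker shape for the replicate letter and a bar for the group mean. The Per2 points at ZT16 (2.21 to 5.26 CPM) lie above those at ZT4 (0.501 to 1.11 CPM), and most other genes overlap.

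The Per1 and Per3 promoters are printed as examples, from the Period genes described above, of the motifs through which clock proteins act. CLOCK and BMAL1 bind the E-box (CACGTG), and the DBP family binds the D-box (searched as TTATGTAA or TTACGTAA). In RefSeq promoters of GRCm38.p6, cut to the 250 bases before each start and searched on both strands, 6.02% of 32851 stretches held the E-box, 0.931% the D-box and 2.23% a ROR response element core (TAGGTCA). Of 17 core clock members with a stretch, the E-box was in 5 (Per1, Cry1, Tef, Bhlhe41 and Ciart), the D-box in 1 (Per3) and the ROR core in 1 (Nfil3). Capitals mark the E-box in the Per1 stretch (chr11:69098699-69098948, plus strand) and both D-box matches in the Per3 stretch (chr4:151044666-151044915, minus strand), each read 5′ to 3′ towards the start.
Per1: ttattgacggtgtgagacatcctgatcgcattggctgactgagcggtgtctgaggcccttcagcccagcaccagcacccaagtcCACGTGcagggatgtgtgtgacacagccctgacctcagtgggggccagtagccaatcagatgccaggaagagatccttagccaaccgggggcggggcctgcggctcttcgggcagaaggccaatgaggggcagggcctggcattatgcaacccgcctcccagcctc
Per3: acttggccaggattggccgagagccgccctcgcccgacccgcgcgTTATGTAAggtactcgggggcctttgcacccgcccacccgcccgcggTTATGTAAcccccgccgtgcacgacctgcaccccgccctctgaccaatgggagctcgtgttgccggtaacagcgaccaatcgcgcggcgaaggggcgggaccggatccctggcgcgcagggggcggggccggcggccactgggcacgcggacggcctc
The 5 genes with an E-box had log2 differences of 0.46 (Per1), 0.27 (Cry1), 0.19 (Tef), -1.19 (Bhlhe41) and 0.14 (Ciart) between ZT16 and ZT4. A match describes the letters of the stretch and not a bound site.

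Set in the full day, the comparison of ZT16 with ZT4 left out the time at which the Period genes had their highest means. The VAT group means at ZT0, 4, 8, 12, 16 and 20 were 160.1, 137, 192, 238, 188 and 171 CPM for Per1, 0.533, 0.866, 2.92, 5.44, 4.16 and 2.29 CPM for Per2 and 18.7, 16.8, 35.8, 37.4, 30.1 and 17.2 CPM for Per3. All were highest at ZT12, and the lowest mean was at ZT4 for Per1 and Per3 and at ZT0 for Per2. Cry1 ran at 137, 92.1, 105, 108, 112 and 91.98 CPM, with its highest mean at ZT0. Arntl ran at 160.2, 108, 107, 78.01, 99.7 and 105 CPM, with ZT4 and ZT16 both between its highest mean at ZT0 and its lowest at ZT12. ZT20 had 2 libraries and each other time 3.

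**Figure D3:**
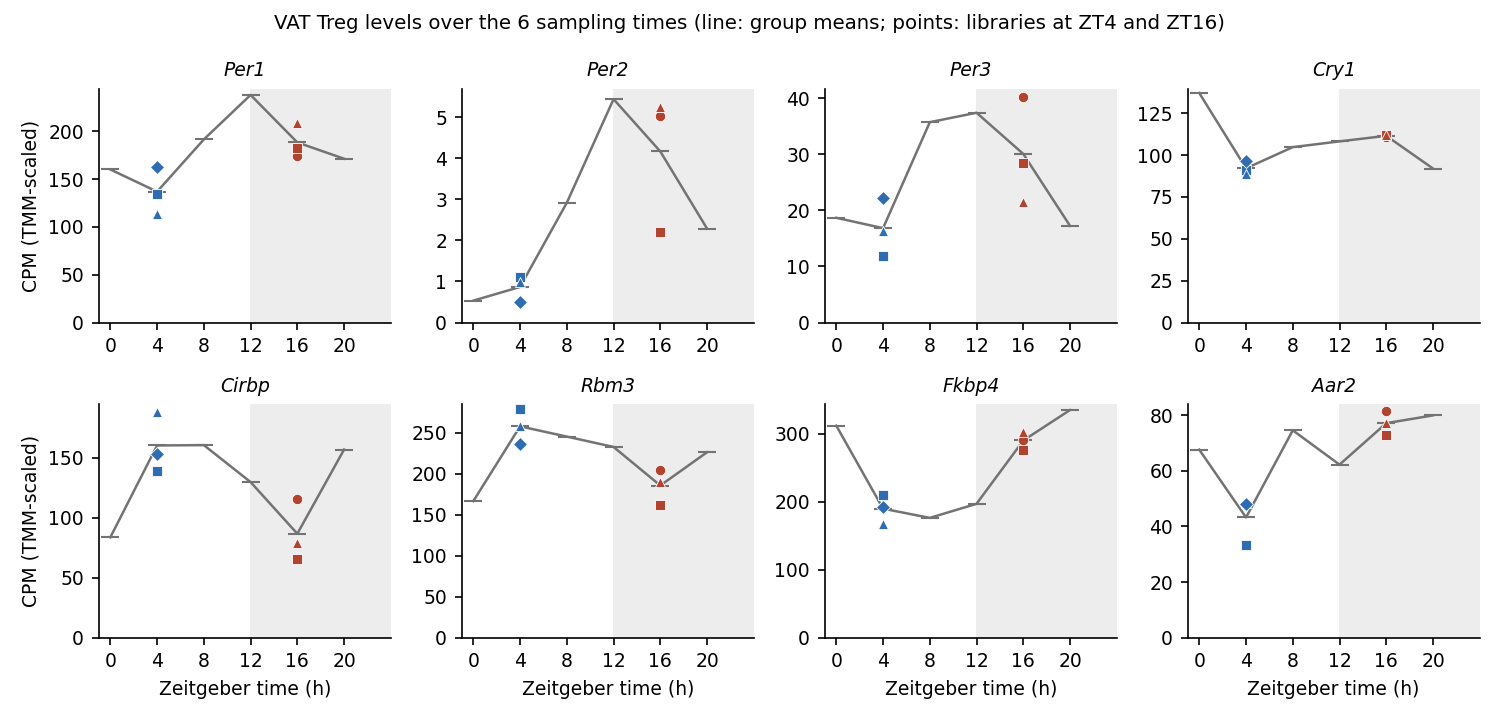
CPM over Zeitgeber time in VAT Tregs for 8 genes, with the dark phase shaded, grey lines through the group means at 6 times, and points for the libraries at ZT4 (blue) and ZT16 (red), shaped by replicate letter. Per1, Per2 and Per3 means are highest at ZT12, and Cirbp and Rbm3 means are low at both ZT0 and ZT16.

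Transcripts of the cold-inducible RNA-binding proteins had lower values at ZT16, short of the threshold. CIRBP and RBM3 are made in larger amounts when temperature drops slightly, and both bind RNA and affect its processing. Cirbp was at 116, 65.8 and 78.8 CPM in ZT16 A, B and C and at 139, 188 and 153 CPM in ZT4 B, C and D, and Rbm3 was at 205, 162 and 190.4 CPM and 279, 258 and 236 CPM. In both genes every ZT16 library was below every ZT4 library (9.28% of all genes did not overlap, in either direction). The log2 fold changes were -0.88 ± 0.21 for Cirbp (adjusted p = 0.202) and -0.47 ± 0.12 for Rbm3 (adjusted p = 0.221) and missed the threshold. In DESeq2 both passed it. Without ZT16 B and ZT4 C the Cirbp value was -0.58. Reads of Rbm3 cannot be told from those of Rbm3os, an antisense gene that shares exon bases with it, since the strand setting is not given in the sources used here. Over ZT0, 4, 8, 12, 16 and 20 the means were 83.7, 160.2, 160.5, 129.7, 86.7 and 157 CPM for Cirbp and 167, 258, 245, 233, 186 and 226 CPM for Rbm3, so values as low as at ZT16 were also measured at ZT0.

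Of the 11 listed cold-inducible and splicing genes, 0 were called and 3 had an unadjusted p under 0.05 (5.88% of all genes, 3.11% lower), all lower at ZT16, with a median log2 fold change of -0.12 over the list (all genes 0.02). The remaining one was Srsf3, which encodes a serine- and arginine-rich splicing factor, at 479, 527 and 459 CPM at ZT16 and 568, 598 and 604 CPM at ZT4 (-0.27 ± 0.10; adjusted p = 0.748). The same change in spleen was -1.08 ± 0.21 for Cirbp (adjusted p = 0.0199) and -0.44 ± 0.12 for Rbm3 (adjusted p = 0.134). In spleen Cirbp thus passed the threshold. The differences between tissues were 0.19 ± 0.29 and -0.04 ± 0.16 log2 units, with 95% intervals from -0.40 to 0.78 and from -0.37 to 0.30. For Srsf3 the spleen change was 0.11 ± 0.10 and the difference -0.38 ± 0.14 (unadjusted p = 0.0089, adjusted p = 0.516).

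Genes known to respond to glucocorticoids, adrenal hormones that peak before the active phase, had more members with higher than lower values at ZT16 (14 against 4), none called. Over all genes 8300 estimates were positive and 7525 negative. Of 18 tested, 3 had an unadjusted p under 0.05 (5.88% of all genes did), all higher at ZT16, 6 had no overlap between the times (9.28% of all genes), all higher, and the median log2 fold change was 0.22. Fkbp5, a co-chaperone of the glucocorticoid receptor and one of its targets, was at 83.2, 87.9 and 124 CPM at ZT16 and 61.5, 44.0 and 64.9 CPM at ZT4 (0.78 ± 0.22; adjusted p = 0.483). Tsc22d3, which encodes the anti-inflammatory protein GILZ, was at 999, 1054 and 769 CPM and 569, 765 and 811 CPM (0.40 ± 0.19; adjusted p = 0.834), with ZT16 C below ZT4 D. Per1 was the other one. Pik3ip1, Dusp1, Cxcr4 and Il7r were the others without overlap. Cxcr4, a chemokine receptor that holds leukocytes in bone marrow, was at 67.1, 67.8 and 69.1 CPM and 30.7, 50.4 and 65.6 CPM (0.47 ± 0.28; adjusted p = 0.919). Klf9, another known target, overlapped at 15.6, 8.27 and 11.8 CPM and 4.98, 14.8 and 18.04 CPM. Group means of Fkbp5 at ZT0, 4, 8, 12, 16 and 20 were 76.8, 56.8, 86.8, 119, 98.2 and 92.7 CPM, with ZT12 highest and ZT4 lowest.

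Chaperones, which fold proteins and are induced by heat and other stress, gave 5 of 22 genes at an unadjusted p under 0.05 (5.88% of all genes, 2.77% higher), all higher at ZT16, with 0 called and a median log2 fold change of 0.07. Fkbp4, a co-chaperone of HSP90 that carries steroid receptors, was at 291, 277 and 304 CPM at ZT16 and 211, 168 and 192 CPM at ZT4, without overlap (0.61 ± 0.16; adjusted p = 0.386). Stip1, which passes clients from HSP70 to HSP90, was at 170.1, 231 and 237 CPM and 167, 107 and 160.3 CPM (0.55 ± 0.21; adjusted p = 0.751). Bag3 was at 31.6, 60.8 and 43.8 CPM and 30.2, 19.8 and 27.6 CPM (0.80 ± 0.30; adjusted p = 0.751), and Hsph1 at 124, 215 and 151 CPM and 104, 81.1 and 95.9 CPM. In these 4 genes ZT4 C, the shallowest library, was the lowest of the 6, and the fifth, Hspb1, was rarely counted, with means of 4.57 ± 1.14 and 1.23 ± 0.628 CPM (SD, n = 3 each). Without ZT4 C, and without both ZT4 C and ZT16 B, the count of 5 became 1, and without both the values were 0.32 for Stip1 and 0.39 for Bag3. Of the HSP90 and HSP70 proteins themselves, Hsp90ab1 was at 2517, 2440.2 and 2761 CPM and 2319, 1848 and 2352 CPM (0.24 ± 0.13), and Hspa8 overlapped at 1837, 1846 and 2221 CPM and 1754, 1347 and 1957 CPM (0.22 ± 0.15). Fkbp4 means over the day were 312, 190.1, 176, 197, 290.4 and 335 CPM from ZT0 to ZT20.

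Besides Aar2, Fkbp4 and Fkbp5, the genes of lowest p with higher values at ZT16 and at least 10 CPM had no common role among the lists, and none passed. Tnfrsf22, a decoy receptor for the death ligand TRAIL, was at 18.2, 31.6 and 17.3 CPM at ZT16 and 8.86, 7.91 and 8.27 CPM at ZT4 (1.42 ± 0.32; adjusted p = 0.153). Metap1, a methionine aminopeptidase that trims new proteins, was at 105, 101 and 87.8 CPM and 50.1, 37.1 and 72.1 CPM. Heatr1, a ribosome biogenesis factor whose exons overlap Lgals8 on the other strand, was at 47.4, 57.5 and 53.6 CPM and 29.4, 30.6 and 29.8 CPM. Both were without overlap, with log2 differences of 0.87 ± 0.21 and 0.82 ± 0.20 (adjusted p = 0.211 for each). Mccc1, a subunit of a leucine-breakdown enzyme, was at 51.8, 52.6 and 41.3 CPM and 23.3, 28.2 and 26.1 CPM. Rgs1, which dampens chemokine receptor signalling and is high in tissue-resident T cells, was at 391, 495 and 451 CPM and 332, 275 and 322 CPM (0.52 ± 0.14; adjusted p = 0.349). Rasa2, a RAS GTPase-activating protein that restrains T cell receptor signalling, was at 113, 117 and 104 CPM and 73.9, 72.7 and 69.1 CPM (0.64 ± 0.17; adjusted p = 0.359). In each of them the lowest ZT16 library was above the highest ZT4 library. Choice by low p favours such a separation, and 9.28% of all genes did not overlap. Nyap2, Ptpn5 and Cdc42ep4 had larger log2 differences, 2.19 ± 0.57, 1.45 ± 0.40 and 1.71 ± 0.48, and wider spread. Without ZT16 B and ZT4 C the log2 difference was 1.06 for Tnfrsf22, 0.37 for Rgs1 and 0.83 for Ptpn5. Ptpn5, a tyrosine phosphatase, ran from 52.6 to 169 CPM within ZT16.

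On the other side, the genes of lowest p besides Cirbp, Rbm3 and the receptor segments included Cd72, which was at 48.4, 27.2 and 17.02 CPM at ZT16 and 85.3, 42.02 and 68.4 CPM at ZT4 (-1.09 ± 0.29; adjusted p = 0.359), with ZT16 A above ZT4 C. CD72 is best known as an inhibitory receptor of B cells, whose 6 markers summed to 133 to 196 CPM at ZT16 and 144 to 242 CPM at ZT4; their part in the Cd72 values was not tested. Zfp12 and Zfp429, zinc finger genes of large families, were at 7.91, 8.82 and 5.26 CPM against 16.1, 24.2 and 25.8 CPM and at 13.7, 4.96 and 17.8 CPM against 28.5, 19.3 and 32.8 CPM. Both kept all ZT16 libraries below all ZT4 libraries (9.28% of all genes did not overlap), with adjusted p = 0.386 and 0.542. Ppp1r21, an endosomal protein, was at 20.8, 20.8 and 18.8 CPM and 40.2, 34.6 and 34.3 CPM (-0.85 ± 0.23; adjusted p = 0.386). Bola2, which acts in iron and sulfur cluster delivery, was at 12.2, 14.2 and 19.8 CPM and 28.2, 34.1 and 23.8 CPM (-0.89 ± 0.25; adjusted p = 0.468), and shares exon bases with genes on the opposite strand. Wdr76 was at 41.7, 30.9 and 43.04 CPM and 67.3, 44.5 and 84.4 CPM.

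Several cholesterol synthesis genes had higher values at ZT16, none past the threshold, and their count rested on library ZT16 B. The pathway builds sterols from acetyl-CoA through HMG-CoA and squalene, and the SREBP2 transcription factor, escorted by SCAP and held back by INSIG proteins, turns it on when sterols run low. Of 31 genes, 7 had an unadjusted p under 0.05 (5.88% of all genes, 2.77% higher), all higher at ZT16, 0 were called, and the median log2 fold change was 0.23. Fdft1, which makes squalene and shares exon bases with Ctsb on the other strand, was at 59.2, 66.5 and 61.6 CPM at ZT16 and 42.4, 27.2 and 36.8 CPM at ZT4 (0.80 ± 0.28; adjusted p = 0.748). Msmo1, a sterol oxidase, was at 116, 122 and 88.1 CPM and 73.1, 64.3 and 80.7 CPM (0.58 ± 0.24; adjusted p = 0.770), and Hsd17b7 at 33.5, 51.8 and 44.3 CPM and 22.99, 17.8 and 34.3 CPM (0.77 ± 0.31; adjusted p = 0.770). Fdft1 and Msmo1 did not overlap between the times, and Hsd17b7 did by 1 library. Hmgcs1, at the entry of the pathway, reached 275 CPM in ZT16 B, while ZT16 C, at 85.8 CPM, was below all 3 ZT4 libraries. ZT16 B was the highest of the 6 libraries for 16 of the 31 genes, 51.6% against 19.2% of all genes tested. Leaving it out reduced the count of 7 to 1, leaving out ZT4 B or ZT4 C reduced it to 4 or 3, and without both ZT16 B and ZT4 C it was 0.

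**Figure D4:**
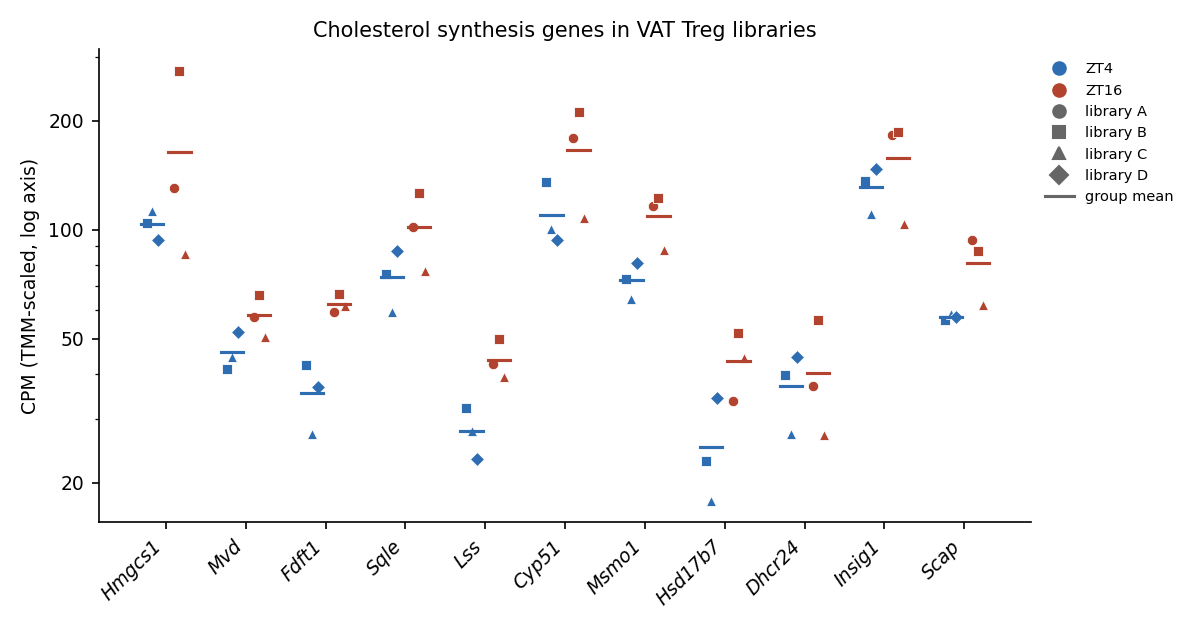
CPM (logarithmic axis) in each of the 6 VAT Treg libraries for 11 of the listed cholesterol genes with an unadjusted p under 0.05 in VAT or for the difference from spleen, ZT4 in blue and ZT16 in red, with the shape for the replicate letter and a bar for the group mean. Square red markers, library ZT16 B, are the highest for all but Scap, and red triangles, ZT16 C, fall below the ZT4 points for Hmgcs1.

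Of the 31 listed cholesterol genes, 22 had a stretch of 250 bases before the start that could be searched. Only Hmgcs1, whose promoter is printed, held a sterol response element (searched as TCACCCCAC), a motif in 0.496% of 32851 stretches, both strands searched. The NF-Y box (CCAAT), whose factor works beside SREBP, was in 33.8% of all stretches and in at least 1 stretch of 19 of the 22 listed cholesterol genes with one. Capitals mark the sterol element and 3 NF-Y boxes, read on the reverse strand as ATTGG (chr13:119690101-119690350, plus strand, GRCm38.p6, RefSeq).
Hmgcs1: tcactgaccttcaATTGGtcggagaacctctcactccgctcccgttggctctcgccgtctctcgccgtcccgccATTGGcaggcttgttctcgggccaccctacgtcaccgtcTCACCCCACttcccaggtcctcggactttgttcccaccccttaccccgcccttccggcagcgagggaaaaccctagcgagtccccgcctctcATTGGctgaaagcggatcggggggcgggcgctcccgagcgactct
The log2 difference of Hmgcs1 was 0.67 ± 0.36 (adjusted p = 0.904).

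Fatty acid synthesis gave a similar pattern. Of 14 genes, 10 passed the filter, and 2 had an unadjusted p under 0.05, both higher at ZT16 (5.88% of all genes, 2.77% higher). Acly, which supplies cytosolic acetyl-CoA, was at 406, 410.5 and 246 CPM and 166, 296 and 162 CPM (0.78 ± 0.35; adjusted p = 0.813). Scd2, a fatty acid desaturase, was at 10.8, 47.98 and 9.01 CPM and 7.75, 10.4 and 9.02 CPM (1.36 ± 0.59; adjusted p = 0.799). ZT16 B alone set the Scd2 value apart, which was 0.25 without ZT16 B and ZT4 C, and it was the highest library for 6 of the 10 genes. In lipid uptake and storage, 1 of 16 genes tested reached an unadjusted p under 0.05: Lipa, the lysosomal lipase, was lower at 74.5, 87.1 and 92.8 CPM against 119, 98.4 and 102 CPM (-0.33 ± 0.15; adjusted p = 0.814). Cd36, a fatty acid transporter, was at 0, 0 and 62.8 CPM at ZT16 and 4.98, 1.48 and 6.01 CPM at ZT4, so that its log2 estimate of 2.26 rested on ZT16 C. Fatty acid oxidation had 0 of 17 genes at an unadjusted p under 0.05, with a median of -0.09, and 13 of the 17 estimates were negative.

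No gene that defines Tregs or their fat-resident form passed the threshold. Of 15 core Treg genes, 0 were called and 2 had an unadjusted p under 0.05 (5.88% of all genes). Their median log2 fold change over the list was 0.06. Il2ra, which encodes CD25, was at 729, 599.7 and 694 CPM at ZT16 and 598, 553 and 551 CPM at ZT4 (0.25 ± 0.12; adjusted p = 0.834), without overlap. Izumo1r, the folate receptor 4 of Tregs, was at 96.6, 96.5 and 64.1 CPM and 92.2, 45.97 and 47.1 CPM. For Foxp3 the log2 difference was -0.05 ± 0.12, with a 95% interval from -0.29 to 0.18. Ikzf2, which encodes Helios, gave 0.05 ± 0.14, from -0.23 to 0.34, and Ctla4 0.18 ± 0.13, from -0.09 to 0.44.

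Of 28 genes of the fat-resident signature, 0 were called and 3 had an unadjusted p under 0.05, 2 higher and 1 lower, against 5.88% of all genes. Gata3, a transcription factor that fat Tregs share with type 2 immune cells, was at 1992, 2089 and 1821 CPM at ZT16 and 1663, 1739 and 1374 CPM at ZT4 (0.31 ± 0.14; adjusted p = 0.830). Cxcl2, a neutrophil-attracting chemokine, was at 1143, 1107 and 1196 CPM and 900, 594 and 947 CPM (0.50 ± 0.22; adjusted p = 0.796), while 5 neutrophil markers summed to 0.368 to 1.44 CPM at ZT16 and 0.250 to 1.38 CPM at ZT4. Il18r1, the receptor chain for IL-18, stood at 36.2, 42.8 and 57.3 CPM and 60.9, 60.8 and 98.7 CPM (-0.70 ± 0.25; adjusted p = 0.748). In all 3 the times did not overlap, as in 9.28% of all genes. Pparg, the transcription factor that shapes fat Tregs, was at 116, 98.4 and 139 CPM and 117, 86.02 and 94.4 CPM (0.24 ± 0.40, from -0.57 to 1.06). Areg, a growth factor for tissue repair, overlapped at 2317, 1608 and 3056 CPM and 2341, 2024 and 2728 CPM, and Ccr2, a receptor for recruitment to inflamed tissue, at 2644, 3227 and 1709.7 CPM and 2369, 2431 and 2069 CPM. The Il10 values, 1091, 779 and 603 CPM and 809.8, 674 and 307 CPM, spread widely, with ZT4 D lowest.

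IL-2 and related cytokines that signal through the common gamma chain keep Tregs alive. Of 21 genes of this group, 18 had a positive log2 fold change, with a median of 0.14. However, 2 reached an unadjusted p under 0.05 (Il2ra and Il6ra) and 0 were called. Of all genes 5.88% reached it, which is the share to set beside each list count below. Il6ra was at 101, 70.96 and 80.3 CPM and 72.6, 52.4 and 67.9 CPM (0.38 ± 0.17; adjusted p = 0.805), and Stat3 at 401, 435 and 394 CPM and 387, 364 and 321 CPM (0.20 ± 0.11; adjusted p = 0.902). Among 20 activation and effector genes tested, 1 reached an unadjusted p under 0.05: Ebi3, a subunit of IL-35 and IL-27, at 45.5, 54.8 and 66.3 CPM and 31.6, 34.1 and 39.8 CPM (0.66 ± 0.25; adjusted p = 0.751), without overlap. Lag3, an inhibitory receptor, was high in ZT4 B (34.1 CPM) and between 2.00 and 11.4 CPM in the other 5 libraries. None of 22 trafficking receptors reached an unadjusted p under 0.05. Of 15 genes of resting or lymphoid T cells, 1 did, Foxo1, which keeps T cells quiescent, at 65.9, 73.5 and 70.1 CPM and 64.8, 43.01 and 50.3 CPM (0.40 ± 0.15; adjusted p = 0.748).

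Immediate early genes, which cells switch on within minutes of a stimulus, gave 1 of 27 at an unadjusted p under 0.05 (5.88% of all genes). That gene was Myc, at 169, 134 and 131 CPM at ZT16 and 125, 90.96 and 120.2 CPM at ZT4 (0.37 ± 0.16; adjusted p = 0.805). Cd69 was at 4811, 4536 and 5160.3 CPM and 4109, 3575 and 4390.3 CPM, without overlap (0.26 ± 0.16; adjusted p = 0.937). Junb, an AP-1 subunit, was at 18812, 14635 and 19346 CPM and 19029.6, 19499.8 and 19426 CPM, with ZT16 B the lowest library. Of 23 cell cycle genes, 2 D-type cyclins reached an unadjusted p under 0.05 (5.88% of all genes), both without overlap (9.28% of all genes). Ccnd2 was at 1544, 1585 and 1627 CPM and 1269, 1053 and 1326 CPM (0.38 ± 0.12; adjusted p = 0.634), and Ccnd3 at 182, 236 and 192 CPM and 152, 152 and 160.3 CPM (0.39 ± 0.13; adjusted p = 0.725). Of 22 interferon response genes, 1 was higher and 2 lower at an unadjusted p under 0.05 (2.77% and 3.11% of all genes). They were rarely counted, such as Rtp4 at 1.44, 0.368 and 0.250 CPM and 0.831, 0.989 and 4.51 CPM, and Oasl2, at 5.00 CPM in ZT16 C and at most 0.277 CPM in the other 5 libraries.

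No gene reached an unadjusted p under 0.05 in 5 further lists, on metabolism and secretion: 26 nuclear-encoded respiratory chain genes (median log2 fold change 0.04), 8 mitochondrial genome transcripts that passed the filter (0.07), 23 genes of glycolysis and hypoxia (0.08), 20 of the unfolded protein response and secretion (0.07) and the 17 of fatty acid oxidation. mt-Co1, a subunit of cytochrome c oxidase, was at 10343, 7992 and 10043 CPM at ZT16 and 9803, 7295 and 8447 CPM at ZT4 (0.15 ± 0.14). Of 21 genes of mTORC1, amino acid and growth control, 1 did, Myc (5.88% of all genes did). Mthfd2, an enzyme of mitochondrial folate metabolism, was at 67.8, 62.3 and 60.8 CPM and 88.3, 72.2 and 68.1 CPM (-0.26 ± 0.15; adjusted p = 0.907). Eno1, a glycolytic enzyme, was at 263, 253 and 297 CPM and 255, 186 and 247 CPM (0.23 ± 0.13, with a 95% interval from -0.03 to 0.50). Dnajb9, a chaperone of the endoplasmic reticulum, was lower in each ZT16 library, at 160.3, 119 and 148 CPM against 168, 182 and 177 CPM (-0.30 ± 0.16; adjusted p = 0.887).

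To see where the VAT change differed from that of Tregs in spleen, a lymphoid organ, the same contrast was formed from 3 spleen libraries at each time and subtracted. The difference passed the adjusted threshold for 2 of 15910 genes (0.0126%) and an unadjusted p of 0.05 for 1180 (7.42%), 610 of them more positive in VAT and 570 more negative. Crmp1, which encodes a collapsin response mediator protein known from axon growth, was at 195, 209 and 193 CPM at ZT16 and 168, 126 and 179 CPM at ZT4 in VAT, a log2 change of 0.33 ± 0.22. In spleen it was at 13.3, 8.21 and 12.6 CPM in ZT16 A, B and C and at 43.8, 35.9 and 22.6 CPM in ZT4 B, C and D, a change of -1.61 ± 0.27 (adjusted p = 0.00338). The difference was 1.94 ± 0.35 (95% interval 1.24 to 2.65; adjusted p = 0.0290). Trbv31 had the other, -4.26 ± 0.78 (adjusted p = 0.0290), with spleen libraries at 11.8, 12.4 and 18.4 CPM and 8.39, 3.63 and 7.19 CPM. Neither gene passed without VAT ZT4 B, ZT4 C, ZT16 B or ZT16 C, or without spleen ZT4 C, ZT16 B or ZT16 C, taken singly. Without spleen ZT16 A, 28 genes did. With the replicate letter within each time as a block, neither Crmp1 nor Trbv31 passed. Tissue and the handling of each tissue cannot be told apart in these values.

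Cholesterol genes gave differences in 1 direction. Of the 31, 12 had an unadjusted p under 0.05 for the difference (7.42% of all genes), all more positive in VAT, 0 were called, and the median difference was 0.62 log2 units against 0.02 over all genes. Cyp51, the sterol demethylase, was at 179, 212 and 108 CPM and 135, 100.4 and 93.7 CPM in VAT and at 55.9, 39.2 and 47.97 CPM and 80.7, 98.4 and 98.1 CPM in spleen, a difference of 1.56 ± 0.36 (adjusted p = 0.164). Without VAT ZT16 B and VAT ZT4 C the count of 12 became 4, and leaving out 1 library at a time gave 8 to 12.

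Chaperones gave differences in the other direction. Of 22, 9 had an unadjusted p under 0.05 for the difference (7.42% of all genes), all more negative in VAT, 0 were called, and the median change was 0.07 in VAT and 0.78 in spleen. Hspa8, the constitutive HSP70, was at 1066, 1729.6 and 1817 CPM and 806, 569.6 and 777 CPM in spleen (1.10 ± 0.16; adjusted p = 0.000328), and the difference was -0.88 ± 0.22 (adjusted p = 0.255). Dnaja1, an HSP40 co-chaperone, was at 365, 370.1 and 564 CPM and 402, 461 and 554 CPM in VAT, overlapping, and at 170.3, 191 and 329 CPM and 115, 112 and 153 CPM in spleen, a difference of -0.99 ± 0.25 (adjusted p = 0.273). Fkbp4, which stood higher at ZT16 in VAT, did so in spleen as well (0.87 ± 0.16, adjusted p = 0.0115). The difference was -0.27 ± 0.23, with a 95% interval from -0.73 to 0.20. Hspa1a and Hspa1b, near-identical copies, had 0 counts in the spleen libraries at ZT4, so their fitted differences depend on the prior count.

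**Figure D5:**
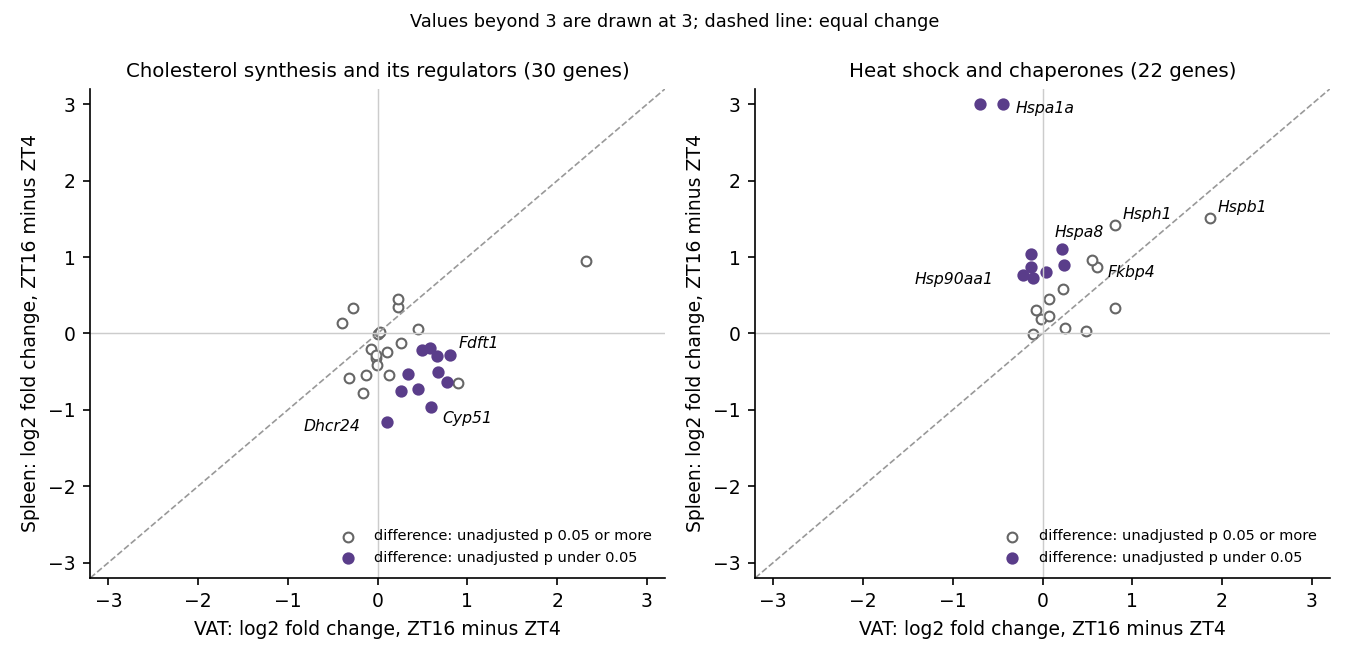
Log2 fold change at ZT16 against ZT4 in VAT (horizontal axis) and spleen (vertical axis) for 30 of the listed cholesterol genes (left) and the chaperones (right, 22), 1 point per gene, filled where the difference had an unadjusted p under 0.05, with values beyond 3 drawn at 3. Filled cholesterol points lie below the dashed line of equal change (11 genes) and filled chaperone points above it (9 genes), none of them past the adjusted threshold.

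Among the 22 clock genes, 3 had a more positive change in VAT at an unadjusted p under 0.05 (5 without spleen ZT16 A), and 0 were called. Over all genes 7.42% had such a p in either direction. Per3 was at 5.02, 3.44 and 1.72 CPM at ZT16 and 7.48, 11.6 and 9.70 CPM at ZT4 in spleen, and the difference was 2.35 ± 0.58 (adjusted p = 0.250). Per2 was at 3.94, 13.5 and 11.2 CPM and 8.16, 13.3 and 10.1 CPM in spleen, a change of -0.13 ± 0.49 against 2.25 ± 0.65 in VAT, and the difference was 2.38 ± 0.82 (adjusted p = 0.491). Tef, at 30.5, 15.6 and 14.4 CPM and 39.9, 44.9 and 40.6 CPM in spleen, differed by 1.26 ± 0.34 (adjusted p = 0.336). Npas2 was the 1 gene with a more negative change, with spleen libraries at 2.51, 0 and 1.44 CPM and 0, 0 and 0 CPM. Of 27 immediate early genes, 2 differences were positive and 6 negative at an unadjusted p under 0.05 (7.42% of all genes). Without spleen ZT16 B, 3 were negative. Junb was at 391, 511 and 428 CPM and 278, 258 and 269 CPM in spleen, far below its VAT level, and differed by -0.86 ± 0.19 (adjusted p = 0.145). Ppp1r15a, a stress gene that restarts translation, differed by -1.17 ± 0.27 and Arc by -1.62 ± 0.41. Of the other genes of lowest p, Bmpr1a, a receptor for bone morphogenetic proteins, differed by 2.63 ± 0.56 and Helq, a DNA repair helicase, by 1.67 ± 0.38. Helq was at 31.6, 31.4 and 29.8 CPM at ZT16 and 12.2, 17.3 and 19.8 CPM at ZT4 in VAT, without overlap, and Rasa2 differed by 0.95 ± 0.23. None of these passed the adjusted threshold.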

How the data were processed

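Treg RNA was measured in 35 libraries by sequencing of oligo-dT-primed cDNA, amplified by a limited PCR and tagged with Nextera XT, in paired reads of 25 nt, per the labels' protocols. The submitters' processing notes name STAR 2.7.3a, featureCounts and the mm10 build. Annotation and strand setting were not given in the sources used here. The deposited values are raw gene counts, whole numbers with no normalisation by the authors.

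Of 55011 genes, edgeR's filterByExpr over the 12 groups (minimum count 10) kept 15910. All 35 libraries were fitted in edgeR 4.0.16 (R 4.3.3) with TMM scaling, 1 mean per group and the robust quasi-likelihood test, so that all groups share 1 estimate of the spread. The contrasts were VAT ZT16 minus VAT ZT4 and its difference from the same contrast in spleen, with Benjamini-Hochberg adjustment and a threshold of 0.05. The standard error is the log2 fold change over the square root of F. DESeq2 1.42.0, other scalings and filters, fewer libraries, a replicate block, a transcript length slope and leaving out single libraries were the alternatives. The fits were tested on simulated data.

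Named were all genes past the threshold, then the 12 of lowest p in each direction at 10 CPM or more, all core clock genes, the 3 of lowest p in each list, and the 6 of lowest p in each direction for the tissue difference. Genes named beside these were chosen after their values were seen, and a few that the rule names are not reported here. The comparison, its gene lists and its tests were chosen with earlier results of these data known, so no list is independent evidence. Promoters came from RefSeq (GRCm38.p6), and a symbol with no entry was left out of the motif counts. Genes named here that share exon bases with a gene on the opposite strand, such as Arntl, Nr1d1, Dbp, Tef, Cyp51, Ccnd2, Ccnd3, Cd72, Gata3, Mccc1 and Stat3, may hold reads of that gene. Figures were drawn with matplotlib 3.10.9 under Python 3.11.15.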

Additional observations from a re-analysis of the deposited data

Results flagged for a closer look

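Crmp1 was 1 of 2 genes whose change from ZT4 to ZT16 differed between VAT and spleen in edgeR's quasi-likelihood test of the difference itself. The VAT change minus the spleen change was 1.94 log2 units (adjusted p = 0.0290). All 3 VAT libraries at ZT16 were above the 3 at ZT4, and all 3 spleen libraries at ZT16 were below the 3 at ZT4. In VAT 9.28% of all genes did not overlap in one direction or the other. By the same test the VAT change alone, 0.33 ± 0.22, did not pass (adjusted p = 0.947). The spleen change, -1.61 ± 0.27, did (adjusted p = 0.00338). The call for the difference was lost on leaving out several single libraries of either tissue.

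Trbv31, a receptor segment with few counts, was the other, with a VAT change minus spleen change of -4.26 log2 units (adjusted p = 0.0290). All 3 VAT libraries at ZT16 were below the 3 at ZT4, and all 3 spleen libraries at ZT16 were above the 3 at ZT4. Of all genes, 9.28% did not overlap in VAT. Both Crmp1 and Trbv31 lost their call with the replicate letter within each time as a block.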

How the results depend on the processing

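The count of 5 genes past the threshold in VAT, and the count of 2 for the difference from spleen, depended on the processing. In VAT the count was 1 with size factors (RLE), 3 with library totals, 18 with no filter on low counts, 12 with DESeq2, and 0 among genes of at least 10 CPM (423 at an unadjusted p under 0.05), with the VAT libraries alone (719) or with the 6 libraries alone (680). It was 0 without VAT ZT16 B and VAT ZT4 C (761), an alternative chosen after seeing the data, and 0 to 1 on leaving out single libraries. With transcript length slope as a covariate it was 6, which included all 5. For the difference from spleen the count was 46 with no filter, 1 at 10 CPM or more, 0 with the 12 libraries alone, 4 with the length slope, 13 with DESeq2, 0 without VAT ZT16 B and VAT ZT4 C, and 0 to 28 on leaving out single libraries. It stayed at 2 under both other scalings. The cause was not tested, beyond the smaller number of libraries or genes that some alternatives use.

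Letters B and C are shared by the ZT16 and ZT4 libraries, and same-letter deviations had correlations of -0.16 and -0.25. Between VAT and spleen libraries of the same letter and time they were 0.16, 0.19 and -0.07 at ZT4 (B, C and D). At ZT16 (A, B and C) they were -0.07, -0.30 and 0.01. So few values cannot decide what a letter marks. With the replicate block 0 genes passed (642 at an unadjusted p under 0.05), with the replicate block and the length slope 1, Cirbp, and with the number in the sample title as a block, added after seeing the data, 0. For the difference from spleen, the replicate block by letter within time left 1 gene, Trbc1.

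No log2 fold change of the 5 genes changed sign. That is no further support, since the 5 were chosen by this contrast and none had overlapping groups. The slope of expression on transcript length differed between the times by -0.00726 (exact permutation p = 0.8, two-sided, where the smallest possible is 0.1), and by -0.0278 to 0.0109 in the alternatives, so its sign was not fixed. Within the times it varied. At 10 CPM or more it was 0.0932 in ZT16 B and 0.0428 in ZT4 C, the libraries set apart on the first principal component. In ZT16 A and C and ZT4 B and D it was -0.0751 to -0.0343. Over all genes ZT4 D was above 0 as well (0.00686). A link between slope and component was not tested. Below 10 CPM, where 4 of the 5 genes lay, counting noise limits what 3 libraries against 3 can tell apart, and under 1 CPM the median 95% interval reached 7.81-fold to either side.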

Other observations

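Some genes of the lists, not described above, kept all ZT16 libraries on one side of all ZT4 libraries without passing the threshold. Scap, the escort of SREBP2, was at 93.7, 87.1 and 61.8 CPM at ZT16 and 56.2, 58.3 and 57.4 CPM at ZT4 (0.50 ± 0.21; adjusted p = 0.770), and Lss, which closes the sterol rings, at 42.4, 49.8 and 39.04 CPM and 32.1, 27.7 and 23.3 CPM (0.66 ± 0.30; adjusted p = 0.806). Pik3ip1, an inhibitor of PI3 kinase, was at 94.9, 84.6 and 90.1 CPM and 80.6, 64.3 and 76.4 CPM (0.28 ± 0.19; adjusted p = 0.947). As over all genes, where 9.28% did not overlap, these are values and not calls. Other listed genes overlapped, such as Tnfrsf4, the costimulatory receptor OX40, at 808, 580.2 and 632 CPM and 674, 386 and 547 CPM.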
